A study of Mus musculus with 3 samples.

Results

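The interferon response genes described here are a named set of 41 genes that interferons are known to induce or that carry the interferon signal and are listed by name. Of the 41, 40 were found by symbol among the 27998 genes listed in all 3 count matrices, and Mx2 was not analysed here. The genes were followed in c-kit-positive, lineage-negative, DAPI-negative bone marrow cells of C57BL/6 mice, profiled as 3 droplet single-cell libraries from 2 mice. The mCherry and non_mCherry libraries were sort fractions of 1 mouse with the genotype Runx1::Runx1t1, which carried Mx1-Cre and a heterozygous conditional knock-in of the fusion with mCherry placed downstream, and which was given poly(I:C) to induce recombination. The submitters describe the mCherry fraction as expressing the fusion and the non_mCherry fraction as cells that did not respond to poly(I:C) and lack it. The control library came from 1 wild-type mouse, and the labels give neither the ages of the mice nor whether the control mouse was given poly(I:C). Each group was thus 1 library. No test or replicate spread could be had for any difference below, and intervals are 95% intervals for counting error only.

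Type I interferons bind a receptor whose kinases switch on a complex that holds STAT2 and IRF9. It binds the interferon-stimulated response element (ISRE) in the promoters of antiviral genes, while interferon-gamma acts mainly at gamma-activated sites (GAS). Many of the induced genes, among them the RNA sensors and the interferon regulatory factors, take part in producing or extending the signal themselves. In bone marrow, poly(I:C) is a common trigger of this response, stem cells are known to react to it, and the Mx1-Cre driver is itself switched on by it, since the promoter of Mx1 is an interferon target.

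Promoter sequence was taken for a few members that hold the 2 elements named above, to show these elements. In RefSeq on GRCm38.p6, 31 of the 41 members had a promoter window. Over the 250 bases before a gene's start, read on both strands, the ISRE core (GAAA, any 2 bases, GAAA) was found for 14 of the 31 members (45.2%) and for 936 of all 27025 genes (3.46%). The GAS letters TTCNNNGAA were found for 9 of the 31 members (29.0%) and for 8.13% of all genes. Isg15, Ifit1 and Irgm1, shown first, held ISRE matches without a GAS match and were called higher in mCherry than in non_mCherry cells. Irf1 and Igtp, shown last, held a GAS match; Irf1 was called higher in non_mCherry than in control over all cells and Igtp in 2 lineages. The sets were picked for these differences, so that they show which letters the named genes hold and no link to the response. All genes shown hold a match, which not all called members do. Ddx58, Oasl2, Oasl1, Irf7, Irf9 and Xaf1 were also called higher in mCherry and held no ISRE or GAS match in their windows. Gbp3, whose level was lower in mCherry than in non_mCherry, held 2 ISRE matches. Capitals mark the matches. A match is a description of the letters and not of binding. The windows, each of 250 bases written 5′ to 3′ along the gene's strand, were chr4:156200819-156201068 (minus strand) for Isg15, chr19:34640639-34640888 (plus strand) for Ifit1, chr11:48871421-48871670 (minus strand) for Irgm1, chr11:53769764-53770013 (plus strand) for Irf1, the first of 2 windows, and chr11:58199306-58199555 (plus strand) for Igtp.
Isg15: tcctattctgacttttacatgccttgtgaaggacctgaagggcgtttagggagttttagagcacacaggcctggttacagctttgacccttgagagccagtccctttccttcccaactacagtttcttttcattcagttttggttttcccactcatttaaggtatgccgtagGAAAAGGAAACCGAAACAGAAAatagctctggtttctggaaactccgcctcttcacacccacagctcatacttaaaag
Ifit1: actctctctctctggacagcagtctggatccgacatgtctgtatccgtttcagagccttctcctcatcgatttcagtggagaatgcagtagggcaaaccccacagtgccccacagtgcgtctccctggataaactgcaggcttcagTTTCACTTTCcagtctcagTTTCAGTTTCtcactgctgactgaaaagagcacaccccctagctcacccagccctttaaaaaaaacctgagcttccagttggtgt
Irgm1: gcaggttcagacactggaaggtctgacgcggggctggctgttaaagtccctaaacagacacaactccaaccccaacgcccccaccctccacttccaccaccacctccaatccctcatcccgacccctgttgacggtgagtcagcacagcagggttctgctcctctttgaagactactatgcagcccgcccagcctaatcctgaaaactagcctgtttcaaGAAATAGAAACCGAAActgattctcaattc
Irf1: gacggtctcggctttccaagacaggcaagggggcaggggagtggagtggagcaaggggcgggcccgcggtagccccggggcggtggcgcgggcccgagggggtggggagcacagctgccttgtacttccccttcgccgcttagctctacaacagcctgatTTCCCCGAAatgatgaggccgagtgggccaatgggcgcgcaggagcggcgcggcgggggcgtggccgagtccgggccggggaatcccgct
Igtp: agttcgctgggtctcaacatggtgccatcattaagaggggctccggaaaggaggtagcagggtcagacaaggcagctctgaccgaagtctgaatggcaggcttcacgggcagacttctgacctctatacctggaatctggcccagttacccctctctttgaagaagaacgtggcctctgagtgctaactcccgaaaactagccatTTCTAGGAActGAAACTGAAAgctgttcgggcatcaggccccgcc
In Isg15, 3 overlapping ISRE matches ended 69, 63 and 57 bases before the start, and in Ifit1 2 separate matches on the opposite strand ended 95 and 76 bases before it. The 2 overlapping ISRE matches of Irgm1 ended 21 and 15 bases before the start. Irf1 held its GAS match 82 bases before the start. Igtp held a GAS match at 37 and an ISRE match at 25 bases.

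The comparisons used 10150 mCherry, 7850 non_mCherry and 8857 control cells with 92048702, 86852479 and 143339512 UMIs, and a median of 8174, 9242 and 15416 UMIs per cell. Values are UMIs of a gene over all UMIs of a library or lineage, scaled to CPM, and are not divided by transcript length, so levels are compared within a gene. Runx1t1, the gene joined to Runx1 in the knock-in, stood at 8.47 CPM in mCherry cells, 0.311 CPM in non_mCherry cells and 0.216 CPM in control cells. Lineages were clusters made without the interferon genes and named from marker genes, and a class made mostly of 1 library's clusters may be that library and not a cell type. Of the 10150 mCherry cells, 10101 lay in 6 clusters that held 112 non_mCherry and 2 control cells. The mCherry library also stood apart in a list of 10 immediate early genes that respond to handling (summed level 15685 CPM, against 2312 CPM in non_mCherry and 2153 CPM in control cells), in the nuclear RNA Malat1 (19778 CPM, against 5316 and 4830 CPM) and in the median mitochondrial share (2.495%, against 1.87% in both). These values differ beside each comparison of mCherry cells over all cells and in the 3 lineages below, and their part in the results was not tested. The immediate early genes are called handling genes below for short, and the source of their level was not tested. Libraries shared few cell barcodes, with 20 in common between mCherry and non_mCherry, 16 between non_mCherry and control, and 36 between mCherry and control.

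The summed level of the 40 measured members was highest in mCherry cells. It stood at 1494 CPM in mCherry cells (1486 to 1501), 844 CPM in non_mCherry cells (838 to 851) and 623 CPM in control cells (619 to 627). By CPM, mCherry was the highest of the 3 libraries for 33 of 40 members, non_mCherry for 7 and control for none, and 30 of 40 members stood in the order mCherry above non_mCherry above control. Bst2, which encodes tetherin, a protein that holds budding virus at the cell surface, gave the most UMIs in each library and differed little, at 175 CPM in mCherry, 164 CPM in non_mCherry and 168 CPM in control cells. It made up 11.7% of member UMIs in mCherry and 19.4% in non_mCherry cells.

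**Figure D1:**
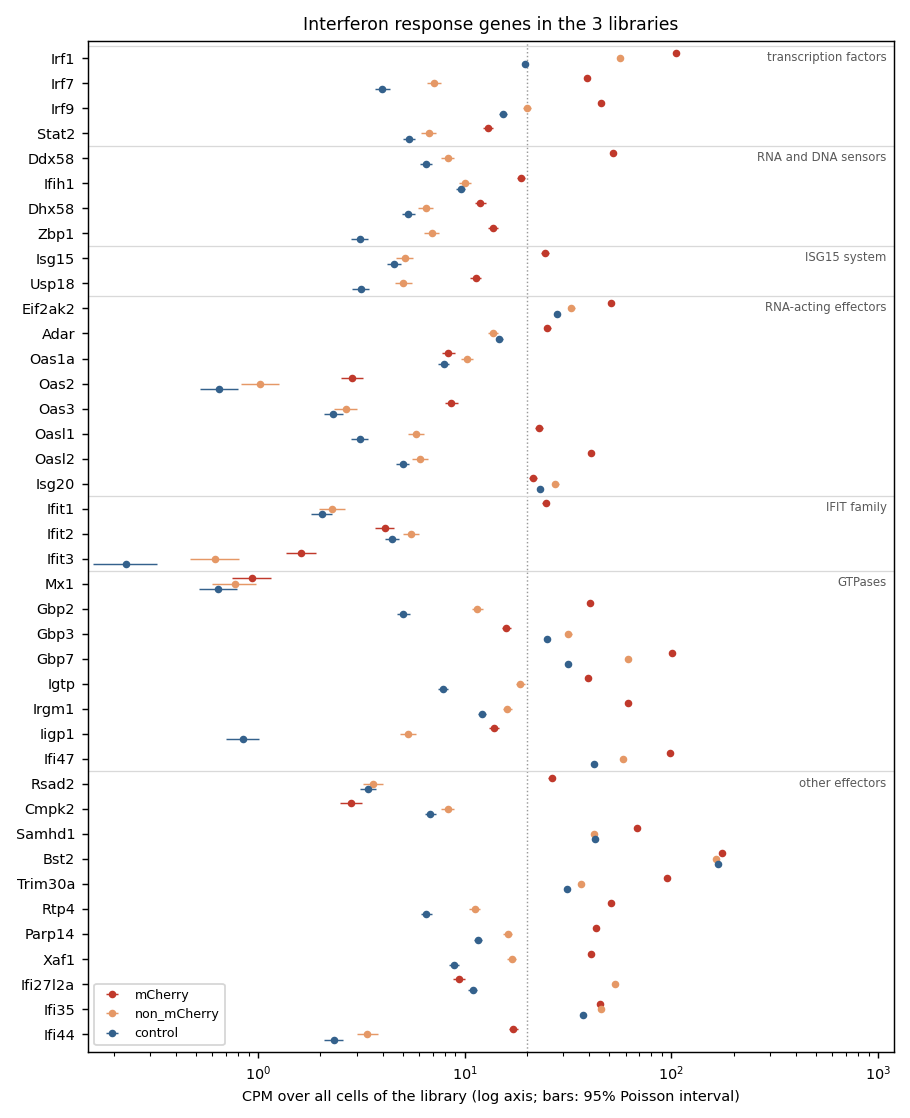
Level of each of the 40 measured members in CPM (log axis) over all cells of the mCherry, non_mCherry and control libraries, grouped by role; bars are 95% Poisson intervals for counting error and the dotted line marks 20 CPM. For 33 of 40 members the mCherry point lies furthest right, with Ifi27l2a, Gbp3 and Cmpk2 among the exceptions.

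A member was called higher or lower where log2((CPM + 5)/(CPM + 5)) reached 1 or -1 and its level was 20 CPM or more in either library. In mCherry over non_mCherry cells 26 of 40 members passed the 20 CPM filter, of which 14 were higher and 1 lower. Of all genes that passed, 14.1% were higher and 8.96% lower. The filter favours members that are high in 1 library: 14 of the 26 passed through mCherry alone, and 12 of these were higher, so that the count is a description. Among the 10 members at or above 20 CPM in both libraries, 2 were higher (Irf9 and Trim30a) and none lower, while 8.70% of the 4830 genes past that limit in both were higher. Over all 40 members the ratio was positive for 33 and negative for 7, with a median of 0.71, and the median over the 10 members past the limit in both libraries was 0.66. Of all genes that passed the filter, 54.9% had a positive ratio. The 14 members under 20 CPM in every library reached 0.934 to 18.7 CPM at their highest, with Ifih1 (18.7 CPM) and Ifi44 (17.1 CPM) just under the limit and Isg20 (27.4 CPM) and Isg15 (24.4 CPM) just over it.

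Of the 4 transcription factors of the response, 3 passed the filter and 2 of these, Irf7 and Irf9, were called higher in mCherry than in non_mCherry cells. Irf7, the factor that drives a second wave of interferon production, was at 39.0 CPM in mCherry, 7.13 CPM in non_mCherry and 3.98 CPM in control cells, 5.47-fold higher in mCherry than in non_mCherry (5.02 to 5.96). Irf9, the DNA-binding part of the complex that reads the ISRE, was at 45.4, 20.03 and 15.3 CPM in mCherry, non_mCherry and control cells, 2.27-fold higher in mCherry than in non_mCherry (2.14 to 2.40). Its partner Stat2 did not pass the filter, at 12.9, 6.68 and 5.37 CPM, with a log2 ratio of 0.62 for mCherry over non_mCherry. Irf1, an activator induced by both interferon types, formed a graded series of 106 CPM in mCherry, 56.6 CPM in non_mCherry and 19.5 CPM in control cells. Its step of mCherry over non_mCherry was 1.87-fold (1.80 to 1.93), under the limit for a call.

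Of the sensors of foreign nucleic acid, Ddx58 stood furthest apart. Ddx58, which encodes the RNA sensor RIG-I, was at 52.2 CPM in mCherry, 8.28 CPM in non_mCherry and 6.49 CPM in control cells, 6.31-fold higher in mCherry than in non_mCherry (5.83 to 6.83). The related helicases were present at fewer UMIs: Ifih1, which encodes MDA5, was at 18.7, 10.0 and 9.54 CPM, and Dhx58, which encodes LGP2, at 11.9, 6.49 and 5.32 CPM in mCherry, non_mCherry and control cells. Zbp1, a sensor of Z-form nucleic acid that can start cell death, was at 13.7, 6.92 and 3.098 CPM. All 4 sensors had positive ratios of mCherry over non_mCherry, from 0.56 to 2.11 (log2).

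Both members of the ISG15 system were highest in mCherry cells. Isg15, a small protein that is joined to other proteins as ubiquitin is, was at 24.4 CPM in mCherry, 5.11 CPM in non_mCherry and 4.53 CPM in control cells, 4.78-fold higher in mCherry than in non_mCherry (4.31 to 5.30). Usp18, which removes ISG15 and also restrains the interferon receptor, was at 11.3, 5.03 and 3.13 CPM (log2 ratio 0.70 for mCherry over non_mCherry). For Isg15 the non_mCherry level exceeded control by less than counting error (1.13-fold, 0.998 to 1.28).

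Of 5 effectors acting on RNA that passed the filter, 2 (Oasl1 and Oasl2) were called higher in mCherry than in non_mCherry cells. Oasl2, a member of the oligoadenylate synthetase family, was at 40.9 CPM in mCherry, 6.08 CPM in non_mCherry and 5.002 CPM in control cells, 6.73-fold higher in mCherry than in non_mCherry (6.14 to 7.38). Its neighbour Oasl1, 11006 bp away on chromosome 5 and known in mouse to restrain translation of Irf7, was at 22.9, 5.84 and 3.098 CPM, 3.93-fold higher in mCherry than in non_mCherry. Oas1a, which makes the 2′-5′ oligoadenylates that activate RNase L, was at 8.32, 10.2 and 7.90 CPM, and Oas3, from the same gene family, at 8.604, 2.65 and 2.32 CPM. The kinase gene Eif2ak2, whose product PKR stops translation on double-stranded RNA, was at 51.3, 32.8 and 27.9 CPM, and the RNA-editing enzyme gene Adar at 25.1, 13.7 and 14.7 CPM. Neither reached the limit for a call. Isg20, an exonuclease, was lowest in mCherry cells at 21.4 CPM, against 27.4 CPM in non_mCherry and 23.1 CPM in control cells.

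In the IFIT family, whose products bind viral RNA, Ifit1 was the 1 member that passed the filter. It was at 24.6 CPM in mCherry, 2.28 CPM in non_mCherry and 2.04 CPM in control cells, 10.8-fold higher in mCherry than in non_mCherry (9.34 to 12.6). Ifit2, from the same cluster on chromosome 19, was at 4.10, 5.50 and 4.44 CPM and did not share this difference. Ifit3 was at 1.62, 0.622 and 0.230 CPM. Its near-identical copy Ifit3b was at 0.293 CPM in mCherry and 0.0576 CPM in non_mCherry cells, so reads that fit both copies may be missing and the Ifit3 level is uncertain. The same holds for Oas1a, which has close relatives next to it.

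Of 6 interferon-induced GTPase genes that passed the filter, Irgm1 and Gbp2 were called higher in mCherry than in non_mCherry cells. Irgm1, an immunity-related GTPase that acts on vacuoles holding pathogens and is needed for stem cell maintenance in mouse, was at 61.9 CPM in mCherry, 16.1 CPM in non_mCherry and 12.1 CPM in control cells, 3.85-fold higher in mCherry than in non_mCherry (3.63 to 4.08). Gbp2, a guanylate-binding protein gene, was at 40.6, 11.5 and 5.04 CPM, 3.53-fold higher in mCherry than in non_mCherry (3.29 to 3.79). Its neighbour Gbp3, 47393 bp away on chromosome 3, went the other way, at 15.9 CPM in mCherry, 31.6 CPM in non_mCherry and 24.9 CPM in control cells (log2 ratio -0.81 for mCherry over non_mCherry). Gbp7, 9877 bp from Gbp3, was at 101, 61.4 and 31.7 CPM. The related GTPase genes Igtp (39.6, 18.6 and 7.85 CPM), Ifi47 (98.3, 58.1 and 42.4 CPM) and Iigp1 (13.8, 5.33 and 0.844 CPM) were graded from mCherry through non_mCherry to control. Mx1, the gene whose promoter drives Cre in this mouse and whose own allele is defective in C57BL/6, had few UMIs in every library, at 0.934, 0.771 and 0.642 CPM, with 95% intervals of 0.747 to 1.15, 0.598 to 0.980 and 0.517 to 0.787 CPM. Members of the Gbp family are close in sequence, so how reads were split among them is uncertain.

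Of 9 remaining effectors that passed the filter, 5 were called higher and 1 lower in mCherry than in non_mCherry cells. Rsad2, which encodes viperin, an enzyme that makes a chain-terminating nucleotide against viruses, was at 26.4 CPM in mCherry, 3.59 CPM in non_mCherry and 3.41 CPM in control cells, 7.34-fold higher in mCherry than in non_mCherry (6.52 to 8.29). Cmpk2, a nucleotide kinase gene on the opposite strand of chromosome 12 whose start lies 12752 bp from that of Rsad2, was at 2.81 CPM in mCherry, 8.26 CPM in non_mCherry and 6.82 CPM in control cells, so that these neighbours differed in direction. Rtp4, an interferon-induced protein gene, was at 50.9, 11.2 and 6.52 CPM in mCherry, non_mCherry and control cells, 4.56-fold higher in mCherry than in non_mCherry (4.25 to 4.89).

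Further effectors called higher in mCherry than in non_mCherry were Parp14, an ADP-ribosyltransferase gene (43.0, 16.1 and 11.6 CPM in mCherry, non_mCherry and control cells), Trim30a, a TRIM family gene (95.4, 36.5 and 31.3 CPM), and Xaf1, whose product binds the apoptosis inhibitor XIAP (40.8, 16.8 and 8.83 CPM). Samhd1, which degrades nucleotides needed for reverse transcription, was at 68.4, 42.1 and 42.7 CPM, and Ifi35 at 44.9, 45.6 and 37.4 CPM, both short of a call. Ifi27l2a, an interferon-induced gene, was the only member called lower in mCherry cells, at 9.42 CPM against 53.4 CPM in non_mCherry cells (0.176-fold, 0.164 to 0.190), with 10.9 CPM in control cells. The low value was thus shared by mCherry and control cells, and non_mCherry stood apart.

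Within marker-named lineages, stem-like cells had fewer members called than all cells together. In stem and multipotent progenitor-like cells (5529 mCherry and 455 non_mCherry cells), the summed level was 1527 CPM in mCherry, 1070 CPM in non_mCherry and 951 CPM in control cells. Of 27 members that passed there, 2 were higher in mCherry than in non_mCherry and none lower, against 5.73% and 2.3% of all genes. The share of members called was therefore near that of all genes, although 25 of the 27 ratios were positive. The 2 were Ifit1, at 26.0 CPM in mCherry, 10.2 CPM in non_mCherry and 9.28 CPM in control cells, and Irgm1, at 56.0, 20.02 and 18.6 CPM. Ddx58 (55.5 CPM in mCherry and 25.9 CPM in non_mCherry cells) and Isg15 (20.9 and 8.32 CPM) lay just under the limit in these cells. With finer clusters (resolution 2.0) 7 of 27 members were called higher, against 6.44% of all genes. With cells picked by their own markers 3 of 28 were, against 5.53%, but with only 90 non_mCherry cells. Of the 5529 stem-like mCherry cells 5528 came from clusters 0, 7 and 18, whereas 389 of the 455 non_mCherry and all control cells came from cluster 6. The handling genes differed here too, at 12965 CPM in mCherry and 3531 CPM in non_mCherry cells.

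In the other 2 lineages with at least 100 cells in both fractions the summed level of all 40 members in mCherry was 2.07 times (basophil and mast cell-like) and 1.86 times (megakaryocyte-like) that in non_mCherry, where it was 1.43 times in stem-like cells and 1.77 times over all cells. In basophil and mast cell-like cells (1511 mCherry and 494 non_mCherry cells) the summed level was 1514 CPM in mCherry, 730 CPM in non_mCherry and 558 CPM in control cells. There 16 of 24 members were higher and Gbp3 was lower in mCherry than in non_mCherry, against 14.9% and 6.66% of all genes. The 20 CPM filter favours genes high in 1 library here as it does over all cells. Counts of called genes in lineages, other cell sets and lists are therefore descriptions too. In megakaryocyte-like cells (160 mCherry and 498 non_mCherry cells) the summed level was 1527, 820 and 591 CPM, and 13 of 26 members were higher in mCherry than in non_mCherry and none lower, against 16.3% and 6.67% of all genes. Oasl2 was at 42.3 CPM in mCherry and 3.80 CPM in non_mCherry basophil and mast cell-like cells, and Trim30a at 92.4 and 26.9 CPM in megakaryocyte-like cells. Irf1 did not share this pattern: it was at 95.8 CPM in mCherry and 93.5 CPM in non_mCherry basophil and mast cell-like cells, and at 47.3 CPM in mCherry and 75.8 CPM in non_mCherry megakaryocyte-like cells. The fractions drew these lineages from different clusters, with mCherry cells in cluster 4 (led by Cma1 and Mcpt4) and cluster 22, and non_mCherry cells in cluster 9 (led by Prss34 and Mcpt8) and clusters 14 and 19. Handling genes stood at 20461 CPM in mCherry and 5240 CPM in non_mCherry basophil and mast cell-like cells, and at 10123 and 3837 CPM in megakaryocyte-like cells.

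**Figure D2:**
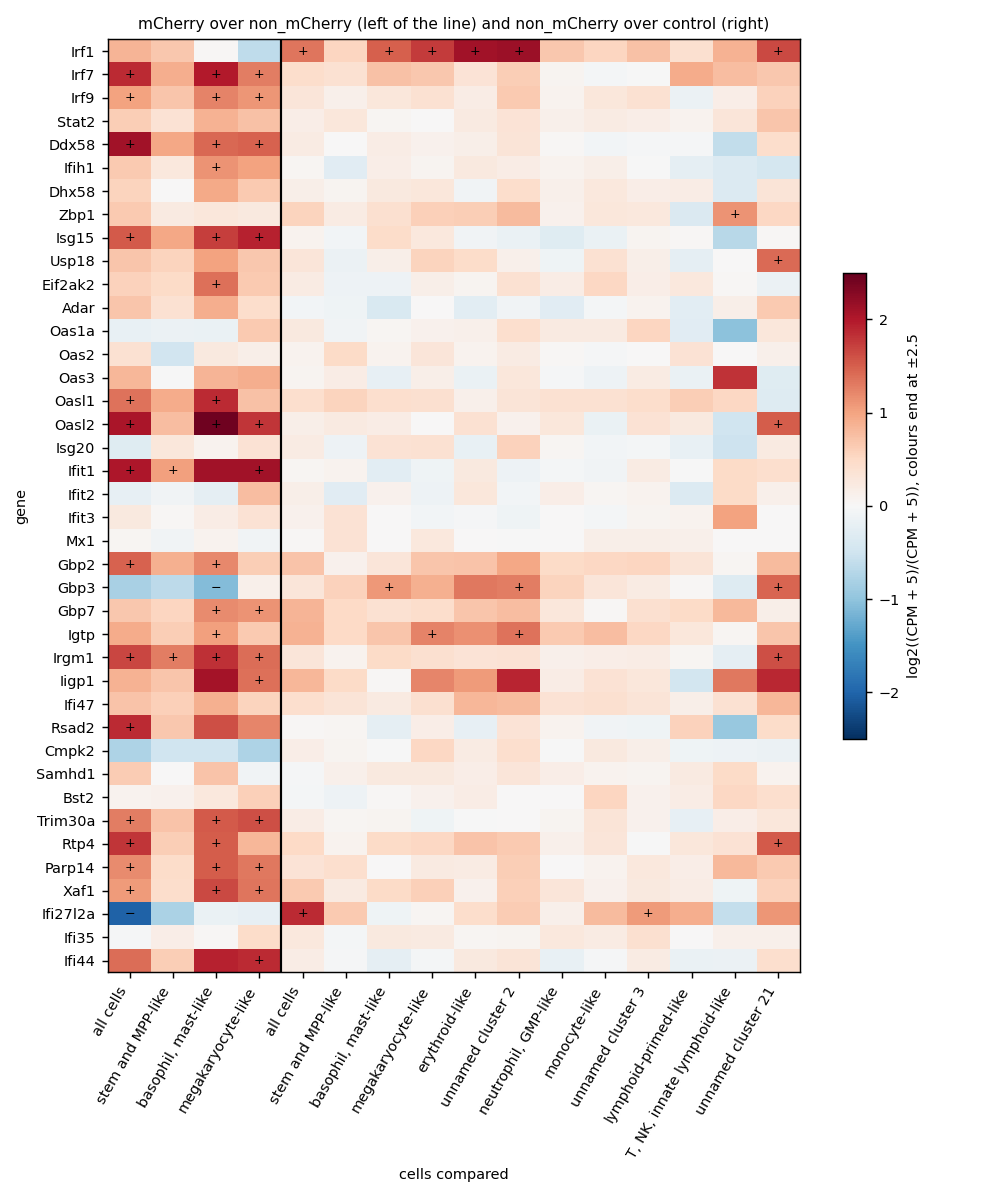
log2((CPM + 5)/(CPM + 5)) of each member (rows) in each set of cells (columns), with mCherry over non_mCherry left of the line and non_mCherry over control right of it; plus and minus signs mark the members called higher or lower. Red, for a positive ratio, fills most of the first 4 columns and is palest in stem and multipotent progenitor-like (stem and MPP-like) cells, whereas right of the line the marks lie most often on Irf1, then Gbp3, then Igtp and Ifi27l2a.

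The 112 non_mCherry cells that grouped with mCherry cells had a summed member level whose interval includes that of the mCherry cells. In the 6 shared clusters the summed level was 1497 CPM in mCherry and 1461 CPM in non_mCherry cells (1361 to 1567), while the other 7738 non_mCherry cells stood at 841 CPM. One of the 112 cells alone held 50 member UMIs after thinning to 2000 UMIs, where the median cell held 2. The variance over mean of member UMIs was 8.255 in the 112 cells. The interval covers counting error and leaves out this spread between cells. Whether the 112 cells carried the fusion was not tested. Of 26 members, 1 was higher in mCherry (Irf9, 45.6 CPM against 10 UMIs or 18.5 CPM) and 1 lower (Ifi27l2a, 9.02 against 35.2 CPM), where 0.934% and 0.728% of all genes were called. The handling genes in these clusters stood at 15776 CPM in mCherry and 13908 CPM in non_mCherry cells, with 0 of 10 called higher. In the other 7738 non_mCherry cells the handling genes stood at 2240 CPM. Their part in the result was not tested.

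In non_mCherry over control most ratios were positive and 2 members were called. Of 12 members that passed, 2 were higher in non_mCherry than in control (Irf1 and Ifi27l2a) and none lower, where 1.14% of all genes were higher and 0.177% lower. Both passed through non_mCherry alone, and among the 9 members past 20 CPM in both libraries none was called. Ratios were positive for 37 of 40 members, against 40.8% of all genes that passed the filter, with a median of 0.21 over the 40 members. Irf1 was 2.90-fold higher in non_mCherry than in control (2.77 to 3.04), and Ifi27l2a 4.89-fold (4.61 to 5.18), at 53.4 CPM in non_mCherry and 10.9 CPM in control cells. Of the 4 members that were furthest up in mCherry over non_mCherry by fold, Ifit1 was 1.12-fold, Rsad2 1.05-fold, Oasl2 1.22-fold and Ddx58 1.28-fold in non_mCherry over control. Others that were called higher in mCherry differed more from control, with Irf7 at 1.79-fold, Rtp4 at 1.71-fold, Oasl1 at 1.89-fold and Gbp2 at 2.28-fold. The 8 GTPase genes ranged widely in log2 ratio of non_mCherry over control, with Igtp at 0.87, Gbp7 at 0.86, Iigp1 at 0.82 and Gbp2 at 0.72, and with Ifi47 at 0.41, Irgm1 at 0.30, Gbp3 at 0.30 and Mx1 at 0.03, all short of a call. These log2 ratios hold the pseudocount of 5 CPM, which shrinks low levels. As a plain fold Iigp1 was 6.315-fold higher (5.16 to 7.78), the largest of the 40 members, at 5.33 CPM in non_mCherry and 0.844 CPM in control cells. Igtp was 2.365-fold higher (2.19 to 2.55). The fractions share the poly(I:C)-treated mouse while the control is another mouse, so poly(I:C), genotype and mouse cannot be told apart here.

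In lineages, Irf1 was the member most often called between non_mCherry and control cells. Over 11 named or numbered classes with at least 100 cells in both libraries, 0 to 6 members were higher in non_mCherry and none lower. Irf1 was positive in all 11 and past 2-fold in 5. It stood at 42.8 CPM in non_mCherry and 6.14 CPM in control erythroid-like cells, at 75.8 and 19.0 CPM in megakaryocyte-like cells, and at 93.5 and 29.9 CPM in basophil and mast cell-like cells. In stem and multipotent progenitor-like cells Irf1 was at 59.4 CPM in non_mCherry and 39.2 CPM in control cells, with no member called. The handling genes stood at 1213 CPM in non_mCherry and 1229 CPM in control erythroid-like cells, at 5240 and 4107 CPM in basophil and mast cell-like cells, and at 3837 and 3335 CPM in megakaryocyte-like cells.

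Besides Irf1, few members were called in any of these classes. Stem and multipotent progenitor-like cells had no member called of 20, where 0.556% of all genes were higher and 0.421% lower. Megakaryocyte-like cells had 2 of 11 higher, Irf1 and Igtp (23.8 CPM in non_mCherry and 7.17 CPM in control cells), where 0.276% of all genes were higher and 0.138% lower. Basophil and mast cell-like cells had 2 of 9 higher, Irf1 and Gbp3 (33.1 and 13.03 CPM), where 0.253% were higher and 0.199% lower. Irf1 was the 1 member of 8 called in erythroid-like cells, where 0.21% of all genes were higher and 0.115% lower. No member was called of 9 in neutrophil and granulocyte-monocyte progenitor-like cells (0.245% of all genes higher, 0.132% lower), of 11 in monocyte and macrophage progenitor-like cells (0.313% and 0.534%) or of 13 in lymphoid-primed progenitor-like cells (0.233% and 0.323%). In these 3 classes Irf1 had positive ratios under 2-fold. T, NK and innate lymphoid-like cells had 1 of 17 higher, Zbp1, at 34 UMIs or 42.4 CPM in non_mCherry and 11 UMIs or 16.8 CPM in control cells, where 1.74% of all genes were higher and 3.4% lower. In unnamed cluster 3, led by F13a1 and Ly86, Ifi27l2a was the 1 of 10 called, where 0.245% were higher and 0.283% lower.

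Cluster 2, led by Clec4d, Apoe, Trib2 and Car1 and unnamed because under 3 markers of its nearest class were up, held 1081 non_mCherry and 996 control cells. Its summed level was 1053 CPM in non_mCherry and 663 CPM in control cells, and 3 of 16 members were higher and none lower, where 0.518% of all genes were higher and 0.0357% lower. These were Irf1 (148 CPM in non_mCherry and 29.7 CPM in control cells), Igtp (36.8 and 11.3 CPM) and Gbp3 (23.0 and 6.58 CPM). Igtp and Gbp3 passed the 20 CPM filter through non_mCherry alone. Iigp1 was at 16.1 CPM in non_mCherry and 0.658 CPM in control cells of this cluster, while Ifit1 (3.74 and 4.51 CPM) and Isg15 (7.59 and 9.12 CPM) stood lower in non_mCherry. Cluster 21, led by Gzmb and Scin, had 106 non_mCherry and 133 control cells and 6 of 21 members higher and none lower, against 1.32% and 1.86% of all genes, namely Irf1, Oasl2, Usp18, Rtp4, Gbp3 and Irgm1. It held 597525 UMIs in non_mCherry and 916425 UMIs in control cells, so levels there rest on few UMIs. Handling genes in cluster 2 stood at 5564 CPM in non_mCherry and 4203 CPM in control cells, and in cluster 21 at 10649 and 8918 CPM.

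Ifi27l2a UMIs of the non_mCherry library came mostly from B-lineage cells, at 3322 of 4641. The B cell progenitor-like class held 15 cells of the mCherry library, 2027 of non_mCherry (25.8%) and 44 of control, although the sort was lineage-negative. The Ifi27l2a level in non_mCherry cells of that class was 275 CPM, 24.2% of all their member UMIs, against 2.74 CPM in non_mCherry erythroid-like cells. B cell markers summed to 49.2 CPM in mCherry, 1727 CPM in non_mCherry and 63.8 CPM in control cells. Without B cell progenitor-like, plasma cell-like, T, NK and innate lymphoid-like and macrophage-like cells, Irf1 was the 1 of 10 members called higher in non_mCherry than in control and none was lower, where 0.289% of all genes were higher and 0.144% lower. In mCherry over non_mCherry 15 of 25 members were then higher and none lower, where 15.4% of all genes were higher and 8.61% lower. Outside B cell progenitor-like cells Ifi27l2a was still 67.8 CPM in non_mCherry and 33.7 CPM in control lymphoid-primed progenitor-like cells, and 27.2 and 10.3 CPM in cluster 3.

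**Figure D3:**
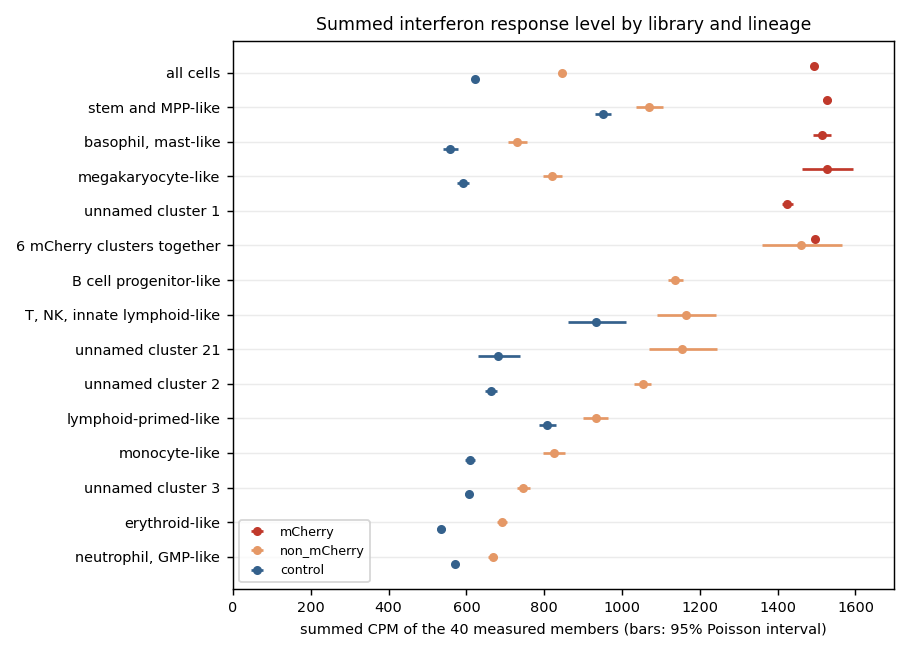
Summed CPM of the 40 measured members in lineages and clusters with at least 100 cells, for mCherry, non_mCherry and control cells. Eosinophil-like cells, which reached 100 cells in control alone (529 CPM), are not drawn. Bars are 95% Poisson intervals for counting error. All mCherry points lie between 1425 and 1527 CPM, right of every non_mCherry and control point except the 112 non_mCherry cells of the 6 mCherry clusters (1461 CPM).

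Set directly against control cells, mCherry cells showed 18 of 25 members higher and none lower, where 14.9% of all genes were higher and 9.95% lower. Of the 25, 16 passed the filter through mCherry alone and 15 of the 18 calls were among these, and of the 8 members past 20 CPM in both libraries 3 were higher, where 9.2% of all genes past that limit in both were. The median over all 40 members was 1.17. Ifit1 was 12.1-fold higher in mCherry than in control (10.7 to 13.7), Irf7 9.78-fold (8.95 to 10.7), Gbp2 8.05-fold (7.44 to 8.73) and Irf1 5.41-fold (5.19 to 5.65). In stem and multipotent progenitor-like cells 8 of 26 members were higher (Irf1, Irf7, Ifit1, Oasl1, Gbp2, Gbp7, Igtp and Irgm1), and none lower, against 6.79% and 3.49% of all genes. This comparison shares its mCherry library with the first and its control with the second, so it adds no separate measurement.

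In the control library the members were not spread evenly over lineages. Stem and multipotent progenitor-like cells had the highest level of 15 of the 40 members among 12 classes with at least 100 cells, T, NK and innate lymphoid-like cells of 8. Rtp4 stood at 34.1 CPM in stem and multipotent progenitor-like cells and at 12.5 CPM in the next class, Oasl2 at 20.4 and 9.18 CPM, and Rsad2 at 15.8 and 5.26 CPM. Ddx58 was highest in T, NK and innate lymphoid-like cells (50.5 CPM), ahead of stem and multipotent progenitor-like cells (25.8 CPM). Isg20 was concentrated in erythroid-like cells, at 88.1 CPM in non_mCherry and 100 CPM in control cells, against 1.68 and 1.96 CPM in monocyte and macrophage progenitor-like cells. Bst2 was highest in monocyte and macrophage progenitor-like cells, at 313 CPM in non_mCherry and 216 CPM in control cells. In non_mCherry cells T, NK and innate lymphoid-like cells and cluster 21 led for 8 members each, and B cell progenitor-like and stem-like cells for 7 each, with Ifit1, Oasl2, Rsad2 and Rtp4 highest in stem-like cells. Among the classes ranked in non_mCherry, T, NK and innate lymphoid-like cells (197 cells, 802862 UMIs) and cluster 21 (106 cells, 597525 UMIs) were the smallest. Their levels rest on the fewest UMIs, so their ranks are the least certain. The same holds in control for T, NK and innate lymphoid-like cells (133 cells, 653696 UMIs), which had the fewest UMIs of the classes ranked there. The libraries hold these classes in different shares, with stem and multipotent progenitor-like cells at 54.5% of mCherry, 5.80% of non_mCherry and 9.34% of control cells, so a difference over all cells also carries the mix of lineages.

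Per cell, member UMIs were few, and cells of the mCherry library held more of them. With each cell thinned to 2000 UMIs, which left out no cell, a cell held on average 3.08 member UMIs in mCherry, 2.03 in non_mCherry and 1.37 in control cells (SD over cells 2.83, 2.20 and 1.62). Cells without any member UMI made up 9.81% of mCherry (9.24 to 10.4, exact binomial), 20.3% of non_mCherry and 30.1% of control cells. In stem and multipotent progenitor-like cells the averages were 3.19, 2.23 and 2.02, and 9.13%, 14.3% and 18.9% of cells had none. At least 5 different members were seen in 15.1% of mCherry, 5.17% of non_mCherry and 1.71% of control cells. No lineage here is known to lack these genes, so a background from free RNA could not be set.

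**Figure D4:**
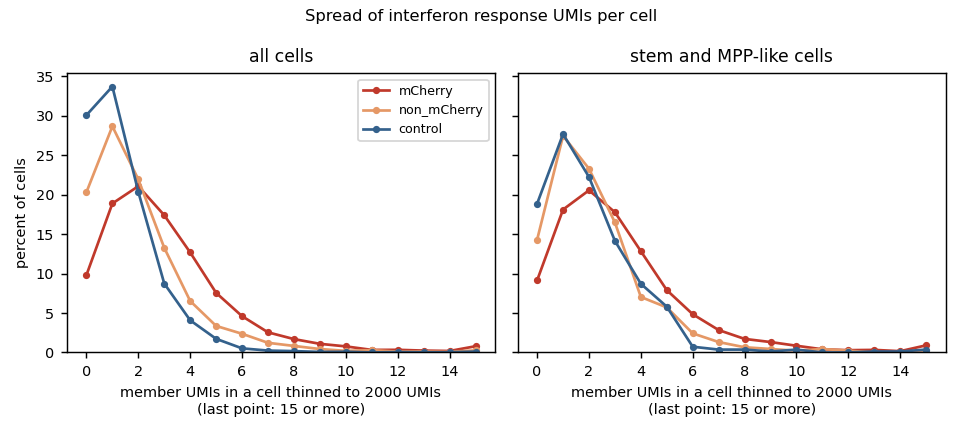
Percent of mCherry, non_mCherry and control cells (vertical axis) by the number of member UMIs in a cell thinned to 2000 UMIs (horizontal axis), for all cells and for stem and multipotent progenitor-like (stem and MPP-like) cells; the last point gathers 15 or more. The mCherry curve peaks at 2 UMIs and the non_mCherry and control curves at 1, and the curves lie closer together in stem-like cells.

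Single members were seen in a minority of cells at this depth. Irf1 had a UMI in 17.4% of mCherry, 11.01% of non_mCherry and 4.74% of control cells (47.1%, 32.7% and 24.0% without thinning), Ddx58 in 10.1%, 2.43% and 1.95%, and Ifit1 in 3.87%, 0.586% and 0.531%. Summed member UMIs had a variance over mean (Fano factor) of 2.604 for mCherry cells, 2.37 for non_mCherry cells and 1.91 for control cells. The variance of the sum was 2.18, 1.74 and 1.63 times the sum of the single members' variances, where members that vary independently would give 1. For single members the median Fano factor was 1.1 (mCherry cells), 1.092 (non_mCherry cells) and 1.064 (control cells). Among the highest were Rsad2 (2.64), Ifit1 (2.37), Ifi27l2a (1.93) and Iigp1 (1.89) in mCherry cells, Ifi27l2a (2.91) in non_mCherry cells, and Ifit1 (5.16, with up to 17 UMIs in 1 cell) in control cells. All these values are over all cells. In stem and multipotent progenitor-like cells the summed UMIs had Fano factors of 2.67 (mCherry), 1.63 (non_mCherry) and 1.85 (control). The variance of the sum was there 2.23, 1.465 and 1.72 times the summed variances. In both, non_mCherry stood below control, and the part of the lineage mix was not tested.

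A small number of cells held many members at once in every library. At least 10 different members among 2000 UMIs were seen in 123 of 10150 mCherry cells (1.21%, 1.01 to 1.44), 28 of 7850 non_mCherry cells (0.357%, 0.237 to 0.515) and 14 of 8857 control cells (0.158%, 0.0864 to 0.265), with up to 21, 22 and 18 members in 1 cell. Counted without thinning, these cells held 27.7%, 10.6% and 26.0% of all Ifit1 UMIs in mCherry, non_mCherry and control cells. They held 13.6%, 9.30% and 13.9% of those of Rsad2, but 1.48%, 0.488% and 0.286% of those of Irf1. In the mCherry library 74 of the 123 were stem and multipotent progenitor-like (1.34% of that class), in the non_mCherry library 17 of the 28 were B cell progenitor-like, and in the control library 6 of the 14 were stem and multipotent progenitor-like (0.726% of that class).

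The rest of the pathway was read from lists of receptors, ligands, sensors, restraints and other induced genes. Of 9 receptor, kinase and STAT genes that passed, 4 were higher and none lower in mCherry than in non_mCherry cells, where 14.1% of all genes were higher and 8.96% lower. Il10rb, a receptor chain shared with interleukin-10 and interferon-lambda, was at 98.0 CPM in mCherry, 19.7 CPM in non_mCherry and 26.4 CPM in control cells (log2 ratio 2.06 for mCherry over non_mCherry). Stat3 (182, 44.9 and 53.2 CPM), the kinase gene Jak1 (326, 108 and 101 CPM) and the type I receptor chain gene Ifnar1 (48.2, 17.6 and 16.7 CPM) were the others, while the interferon-gamma receptor chain gene Ifngr2 stood lowest (12.1, 24.5 and 27.0 CPM). No interferon ligand passed: 8 of 10, Ifnb1 among them, had no UMI in any library, which allows up to 0.0326 CPM in mCherry, 0.0345 CPM in non_mCherry and 0.0209 CPM in control cells (3 counts per library), and Ifng was at 0.0109, 1.15 and 0.188 CPM. Of 7 other sensor and adaptor genes that passed none was called, with ratios of mCherry over non_mCherry from -0.59 (Mb21d1, which encodes cGAS) and -0.53 (Aim2) to 0.63 (Tbk1 and Tmem173).

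Of 7 restraints of the response, 3 were higher in mCherry than in non_mCherry cells and none lower, against the same 14.1% and 8.96% of all genes. Socs3, an inhibitor of JAK signalling, was at 206 CPM in mCherry, 11.9 CPM in non_mCherry and 12.1 CPM in control cells (17.4-fold higher in mCherry than in non_mCherry), Socs1 at 22.9, 5.50 and 3.52 CPM, and the phosphatase gene Ptpn2 at 98.1, 43.4 and 43.6 CPM. Of 32 other interferon-stimulated genes that passed, 15 were higher and 3 lower in mCherry than in non_mCherry, again against 14.1% and 8.96%. The furthest up were Ly6a, the Sca-1 surface marker of mouse stem cells (659 CPM in mCherry, 19.99 CPM in non_mCherry and 7.38 CPM in control cells), Cd274, which encodes PD-L1 (85.4, 5.58 and 5.21 CPM), and Uba7, the activating enzyme for ISG15 (111, 19.2 and 15.3 CPM). The furthest down were Ifitm1 (54.1, 704 and 493 CPM), the lysosomal thiol reductase gene Ifi30 (4.71, 49.9 and 36.0 CPM) and the chemokine gene Ccl5 (3.99, 45.4 and 15.7 CPM). Ccl5 is the leading gene of the T, NK and innate lymphoid-like cluster, which held 4 mCherry, 197 non_mCherry and 133 control cells, and the part of these cells in its difference was not tested. In stem and multipotent progenitor-like cells 9 of 29 of these genes were higher, with Ly6a, Cd274 and Uba7 among them, and 2 lower, against 5.73% and 2.3% of all genes. In non_mCherry over control Ccl5 was the only called gene of 22, where 1.14% of all genes were higher and 0.177% lower, with Ube2l6 at 0.76 and Cxcl10 at 0.55 next, and Ly6a, at 1.01, just missed the 20 CPM filter.

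Markers of plasmacytoid dendritic cells, which are strong producers of interferon, and of macrophages were read as lists of other cell types that the sort could hold; their part in the results was not tested. Plasmacytoid markers summed to 218 CPM in mCherry, 219 CPM in non_mCherry and 176 CPM in control cells, with Siglech and Klk1 at 0 in mCherry and Klk1 also at 0 in non_mCherry, and no cluster took that name. Macrophage markers summed to 18.3, 5.33 and 7.49 CPM, and macrophage-like cells numbered 2 in mCherry, 18 in non_mCherry and 53 in control.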

How the data were processed

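Droplet single-cell RNA was measured in 3 libraries, grouped by their group label. The authors deposited raw UMI counts per gene and barcode; Cell Ranger 6.1.2 and mm10 are named, per the submitters' processing notes. A software version of 3.1.0 stands in the matrices, per the file headers, so the version behind the deposited counts is uncertain. Cells with at least 1000 genes and 2000 UMIs and at most 10% mitochondrial UMIs were kept, and 269 mCherry, 206 non_mCherry and 209 control cells with a Scrublet score over 0.25 were left out as doublets. Clusters came from scanpy 1.11.5 with leidenalg 0.10.2 (2000 variable genes without interferon genes, 30 components, 15 neighbours, resolution 1.0). A cluster was named for the class with the largest share of its markers 2-fold up, with at least 3 up and its own class at least level with any other among its 10 leading genes, a rule set after the data were seen. Other naming can move cells between classes.

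Counts were summed per library and lineage (at least 100 cells) and divided by the total to CPM, with a pseudocount of 5 CPM in ratios. With 1 library per group there was no test. Poisson and Clopper-Pearson 95% intervals cover counting error only. The ratio step was tested on simulated data. Named in full were members at least 2-fold apart with 20 CPM in 1 library, the 5 highest in each library and, per other list, the 3 furthest up and down; genes described beyond these were chosen after their values were seen. Members and lists were chosen with earlier results of these data known. Alternatives were other pseudocounts, filters, scalings, cell sets, clusterings and thinning. Gene locations are from GENCODE vM21 and promoters from RefSeq. A result on 1 further gene of the pathway lists is not reported here.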

Additional observations from a re-analysis of the deposited data

How the results depend on the processing

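No paired analysis was possible because each group is 1 library. Over 398 recomputed ratios of single members none changed sign, and 342 stayed past 2-fold. No filter on low values and a mean of 10 CPM changed only which members were tested. Their 35 ratios each were thus fixed in advance. In stem cells by their own markers, and likewise in stem-like clusters, only 10 of 33 stayed past 2-fold. Median-of-ratios scaling shifted all ratios by at most 0.02 (log2). With the total taken without Malat1 and mitochondrial genes, 35 of 35 ratios stayed past 2-fold. Counts of members called higher in mCherry over non_mCherry were 3 in stem cells picked by their own markers and 2 in stem-like clusters, and in mCherry over control 7 and 8. The 1 member lower in mCherry than in non_mCherry became 0 in both stem sets and without B, plasma, T, NK and macrophage-like cells. Members higher in non_mCherry than in control went to 1 as a mean over 11 lineages and 1 without those cells. The main medians were taken over the members that passed the filter, and those with no filter are the medians over all 40 members. For mCherry over non_mCherry 26 members passed, and the main median lay between the ratios of Irf9 (1.01) and Xaf1 (1.07). The median of mCherry over non_mCherry was 1.19 with a pseudocount of 1 CPM, 0.71 with no filter, 0.98 with all barcodes, 0.80 with thinned cells, 0.37 in stem cells by their own markers, 0.62 in stem-like clusters, 1.32 without B, plasma, T, NK and macrophage-like cells and 0.97 for members with a mean of 10 CPM over the 3 libraries. For non_mCherry over control the main median, over the 12 members that passed, lay between the ratios of Ifi35 (0.25) and Gbp3 (0.30). It was 0.21 with no filter and 0.40 with thinned cells. For mCherry over control the main median, over the 25 members that passed, was the ratio of Isg15 (1.63). It was 2.09 with a pseudocount of 1 CPM, 1.17 with no filter, 1.43 with thinned cells, 0.83 and 0.85 in the 2 stem sets and 1.53 for the mean of 10 CPM. With 4000 UMIs per cell the Fano factor over all cells reached 4.26 for mCherry, 2.84 for non_mCherry and 2.65 for control cells, and 337, 1095 and 295 shallower cells were left out. The other alternatives stayed within 1.5 times for counts. Not run, with under 100 cells in a library, were stem-like and megakaryocyte-like cells of mCherry over non_mCherry and stem-like and monocyte-like cells of non_mCherry over control at resolution 0.5, and lineage medians for stem-like cells by own markers. The values given above for stem cells by their own markers rest on 90 non_mCherry cells, under that limit. Depth limits members near 1 CPM, such as Mx1 and Ifit3.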
